A study of Mus musculus with 14 samples.

Results

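Slc17a7, Camk2a, Neurod6, Nrgn, Prox1, Wfs1, Fibcd1, Rgs14, Itpka and C1ql2 are marker genes of hippocampal excitatory neurons. These 10 genes, of 21298 tested, were chosen by name as markers of excitatory neurons in general, of the CA1 and CA2 fields and of the dentate gyrus, with earlier results of these data known. Their levels were compared between RNA bound to ribosomes of parvalbumin (PV) neurons and total hippocampal RNA, and between stress groups. All 10 passed edgeR's filter on low counts.

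Excitatory neurons of the hippocampus are the pyramidal cells of the CA fields and the granule cells of the dentate gyrus. They release glutamate and far outnumber the PV interneurons, GABAergic cells that form synapses around their cell bodies. In translating ribosome affinity purification (TRAP), ribosomes that carry the tagged protein EGFP-L10a are immunoprecipitated from a homogenate, and RNA of cells without the tag can be carried over.

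TRAP was performed after chronic social defeat stress (CSDS) on male mice of C57BL/6 background that carried a Cre-dependent EGFP-L10a allele and PV-Cre (EGFP-L10a+; PV-Cre+). All groups shared this genotype, and the tag is expressed wherever the PV-Cre allele has been active. Behavioral experiments began at 8 to 12 weeks of age, and CSDS meant 10 days of defeat by CD1 aggressors, after which mice with a social interaction ratio of at least 1 were called resilient and those with a lower ratio susceptible. TRAP libraries came from 4 non-defeated, 4 resilient and 3 susceptible mice, each from the 2 hippocampi of 1 mouse, and 3 input libraries hold total RNA of non-defeated mice before TRAP. Input of defeated mice was not analysed here. The numbers in the library names, 12 to 14 for input and 1 to 11 for TRAP, are each used once. They do not show whether an input and a TRAP library came from the same mouse, so input and TRAP were not paired.

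Library totals were between 64110214 and 94726962 counts. Levels are given as CPM, counts scaled to the library total with TMM factors that lay between 0.945 and 0.995 in TRAP and between 1.10 and 1.12 in input. Together, the 10 genes took between 0.364% and 0.425% of the counts of an input library and between 0.0778% and 0.147% of a TRAP library, with 61232 counts in the lowest. Differences were tested in edgeR's quasi-likelihood model of all 14 libraries and are log2 fold changes, and adjusted p-values are Benjamini-Hochberg values over the 21298 genes. Pvalb, which encodes PV, had 25.4 ± 6.03 (SD, n = 3) CPM in input and 1464 ± 134 (SD, n = 4) CPM in TRAP of non-defeated mice (log2 fold change 5.85, adjusted p = 7.89e-11), and all 10 genes of a PV interneuron list, Pvalb included, were higher in TRAP. The others on this list were Gad1, Gad2, Slc32a1, Lhx6, Syt2, Erbb4, Kcnc1, Kcnc2 and Cox6a2.

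Of the 10 excitatory markers, 8 have a promoter in the RefSeq tables used here, and the 250 bases before the start of transcription of 4 of them are shown because these genes stand for pyramidal cells, granule cells and excitatory neurons in general. They were read 5′ to 3′ on the strand of the gene, in GRCm38.p6 coordinates. Capitals mark CANNTG, the E-box that basic helix-loop-helix factors such as Neurod6 can recognise. The pattern is its own complement, so a search of 1 strand covers both, and it was searched in these upstream bases.
Slc17a7, chr7:45163671-45163920, plus strand: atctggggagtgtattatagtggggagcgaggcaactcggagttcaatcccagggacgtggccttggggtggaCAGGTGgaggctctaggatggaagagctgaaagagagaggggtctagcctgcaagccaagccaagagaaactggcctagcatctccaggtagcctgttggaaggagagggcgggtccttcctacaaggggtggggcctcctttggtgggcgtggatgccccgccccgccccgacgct
Neurod6, chr6:55681264-55681513, minus strand: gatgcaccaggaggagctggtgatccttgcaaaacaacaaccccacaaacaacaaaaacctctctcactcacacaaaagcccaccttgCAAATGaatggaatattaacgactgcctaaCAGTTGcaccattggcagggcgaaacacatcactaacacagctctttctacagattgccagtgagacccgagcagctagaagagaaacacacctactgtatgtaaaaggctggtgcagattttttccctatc
Prox1, chr1:190170828-190171077, minus strand: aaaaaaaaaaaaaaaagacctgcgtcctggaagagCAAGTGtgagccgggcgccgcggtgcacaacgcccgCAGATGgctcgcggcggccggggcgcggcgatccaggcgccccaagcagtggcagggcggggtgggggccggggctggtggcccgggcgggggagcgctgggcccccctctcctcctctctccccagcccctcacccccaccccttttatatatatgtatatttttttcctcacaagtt
C1ql2, chr1:120340332-120340581, plus strand: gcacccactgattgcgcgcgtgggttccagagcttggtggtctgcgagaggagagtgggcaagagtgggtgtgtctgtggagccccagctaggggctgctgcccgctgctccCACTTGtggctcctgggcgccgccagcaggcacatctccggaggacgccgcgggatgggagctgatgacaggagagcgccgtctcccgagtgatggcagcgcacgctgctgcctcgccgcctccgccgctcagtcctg
Of the 8 genes, 6 hold CANNTG in at least 1 promoter, and Fibcd1 and Itpka hold none. Prox1 has a further promoter, at chr1:190169516-190169765 and not shown, with 0 matches, so the 8 genes have 9 promoters. Of 32851 promoters of the same length in the table, 66.2% hold CANNTG. Such shares of all promoters are per promoter, not per gene. CAGATG or its complement CATCTG, a subset of CANNTG, is in 3 of the 8 genes (Nrgn, Prox1 and Wfs1) and in 14.4% of all promoters. CAGCTG, another subset, is in 0 of the 8 and in 4271 of the 32851. A match is a string of letters and not evidence of binding.

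In non-defeated mice, all 10 excitatory markers fell from input to TRAP (adjusted p under 0.05 for each), where 27.6% of the genes tested were lower and 27.4% higher. Their median log2 fold change was -1.73, beside -0.04 for all genes tested. The decrease was between 1.89-fold for Camk2a and 5.66-fold for Nrgn. For each gene, the lowest of the 3 input libraries was above the highest of the 11 TRAP libraries, by 1.23 times for Camk2a and by 3.46 times for Neurod6 at the extremes. In bulk RNA, fewer cells of a type and less RNA per cell cannot be told apart. Nor can RNA carried over from untagged cells be told apart from RNA of the same gene in tagged cells.

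**Figure D1:**
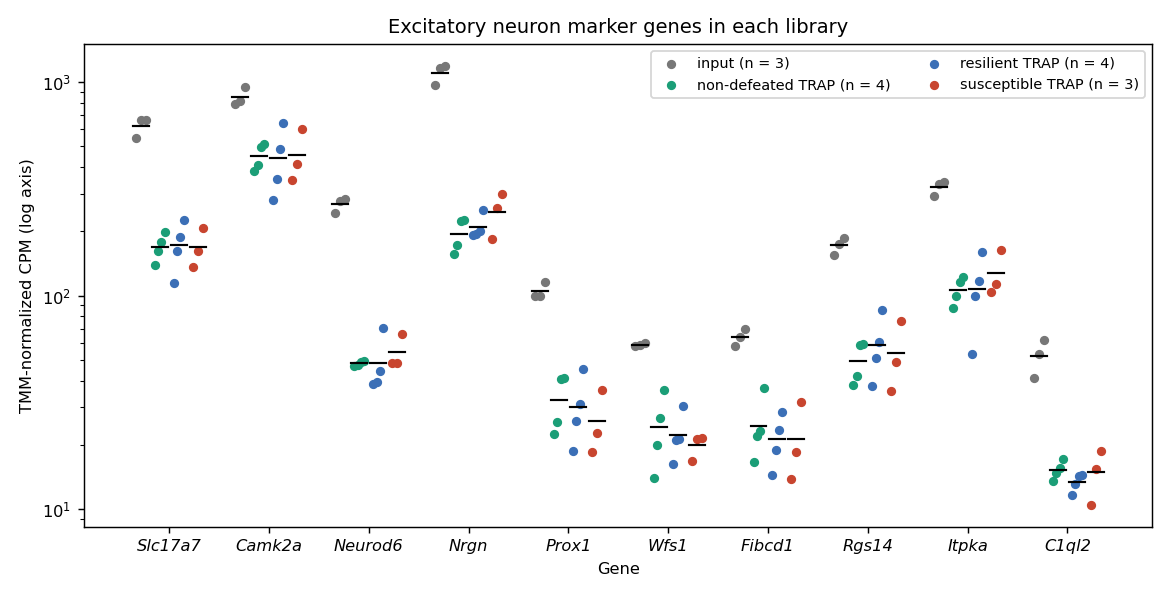
TMM-normalized CPM (log axis) of the 10 excitatory marker genes, with each library as a point, the group mean as a bar and the groups side by side for each gene. The 3 input libraries lie above all 11 TRAP libraries for every gene, and the 3 TRAP groups overlap.

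Among the markers of excitatory neurons in general, Slc17a7 encodes the vesicular glutamate transporter VGLUT1, which loads synaptic vesicles with glutamate. Slc17a7 had 661, 664 and 546 CPM in the input libraries and 139, 161, 179 and 198 CPM in TRAP libraries of non-defeated mice, with means of 624 ± 66.9 (SD, n = 3) and 169 ± 25.4 (SD, n = 4). Its log2 fold change was -1.88 (standard error 0.20, adjusted p = 2.09e-06). The gene (ENSMUSG00000070570) lies on chromosome 7 of mm10 from 45163949 to 45176142. TRAP of defeated mice gave 115, 227, 189 and 161 CPM in resilient and 162, 136 and 207 CPM in susceptible mice, in order of library number as in all such lists here. The lowest and the highest of all TRAP values were both from resilient mice.

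Camk2a encodes the alpha subunit of calcium/calmodulin-dependent kinase II, a kinase of excitatory synapses. Camk2a had 942, 819 and 789 CPM in the input libraries and 383, 411, 498 and 512 CPM in TRAP libraries of non-defeated mice, with means of 850.2 ± 81.3 (SD, n = 3) and 451 ± 63.6 (SD, n = 4). This was the smallest decrease of the 10 genes, a log2 fold change of -0.91 (standard error 0.24) with an adjusted p of 0.00443. In defeated mice, the values were 279.5, 640.4, 353 and 487 CPM in resilient and 412, 348 and 602 CPM in susceptible mice. The highest TRAP library of this gene, resilient 5, reached 75.3% of the mean input level, and the lowest, resilient 3, was at 32.9%.

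Neurod6 encodes a basic helix-loop-helix transcription factor of pyramidal neurons. Neurod6 had 278, 282 and 245 CPM in the input libraries and 47.0, 47.4, 49.6 and 49.1 CPM in TRAP libraries of non-defeated mice, with means of 268 ± 20.5 (SD, n = 3) and 48.3 ± 1.28 (SD, n = 4). The coefficient of variation of the 4 TRAP values of non-defeated mice was 2.65%, the lowest of the 10 genes in that group, beside 31.5% in resilient mice. The log2 fold change from input was -2.47 (standard error 0.18, adjusted p = 7.45e-08). In defeated mice, 39.4, 70.8, 38.7 and 44.4 CPM in resilient and 48.5, 48.3 and 66.4 CPM in susceptible mice were counted. Resilient 5 and susceptible 10 stood above the other 9 TRAP libraries.

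Nrgn encodes neurogranin, a calmodulin-binding protein of dendritic spines. Nrgn had 1189, 1161 and 965 CPM in the input libraries and 224, 227, 157 and 173 CPM in TRAP libraries of non-defeated mice, with means of 1105 ± 122 (SD, n = 3) and 195 ± 35.2 (SD, n = 4). It had the largest decrease of the 10. Its log2 fold change was -2.50 (adjusted p = 3.5e-08, standard error 0.17), and 1.78% of the genes tested had a lower fold change. In defeated mice, 201, 250.4, 193 and 194 CPM in resilient and 298, 183 and 256 CPM in susceptible mice were found, and the highest TRAP value was from susceptible 2.

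Itpka encodes inositol-trisphosphate 3-kinase A, which also bundles actin in dendritic spines. Itpka had 335, 341 and 294 CPM in the input libraries and 87.5, 99.3, 122 and 115 CPM in TRAP libraries of non-defeated mice, with means of 323 ± 25.6 (SD, n = 3) and 106 ± 15.5 (SD, n = 4). Its log2 fold change was -1.61 (standard error 0.26, adjusted p = 0.000135). With 53.1, 160.0, 99.1 and 118 CPM in resilient and 104, 114 and 164 CPM in susceptible mice, it had the widest range over the TRAP libraries, 3.10 times from lowest to highest, whereas the input libraries differed by 1.16 times.

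Wfs1 and Fibcd1 are markers of CA1 pyramidal neurons. Wfs1 encodes wolframin, a membrane protein of the endoplasmic reticulum. Wfs1 had 59.7, 58.0 and 58.5 CPM in the input libraries and 14, 19.9, 26.8 and 36.1 CPM in TRAP libraries of non-defeated mice, with means of 58.8 ± 0.894 (SD, n = 3) and 24.2 ± 9.51 (SD, n = 4). The log2 fold change was -1.28 (standard error 0.25, adjusted p = 0.000637). Fibcd1 encodes a membrane receptor with a fibrinogen-like domain. Fibcd1 had 64.2, 69.8 and 57.9 CPM in the input libraries and 16.6, 22.0, 23.2 and 36.9 CPM in TRAP libraries of non-defeated mice, with means of 64.0 ± 5.97 (SD, n = 3) and 24.6 ± 8.62 (SD, n = 4). The log2 fold change was -1.38 (standard error 0.29, adjusted p = 0.00105). Both genes were highest in non-defeated 11, at 61.5% and 57.6% of the mean input level. The values in defeated mice were 16.2, 21.1, 30.4 and 21.3 CPM in resilient and 16.9, 21.6 and 21.4 CPM in susceptible mice for Wfs1. For Fibcd1 they were 14.5, 28.4, 19.1 and 23.6 CPM in resilient and 18.5, 13.9 and 31.6 CPM in susceptible mice.

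Rgs14 marks CA2 pyramidal neurons and encodes a regulator of G protein signaling. Rgs14 had 175, 186 and 155 CPM in the input libraries and 38.2, 42.2, 59.0 and 59.4 CPM in TRAP libraries of non-defeated mice, with means of 172 ± 15.4 (SD, n = 3) and 49.7 ± 11.1 (SD, n = 4). The log2 fold change was -1.79 (standard error 0.27, adjusted p = 5.96e-05). In defeated mice, 37.9, 85.7, 51.1 and 60.4 CPM in resilient and 35.8, 48.7 and 76.4 CPM in susceptible mice were found. The highest values were again from resilient 5 and susceptible 10.

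Prox1 and C1ql2 mark granule cells of the dentate gyrus. Prox1 encodes a homeobox transcription factor that keeps the identity of granule cells and is also made by some interneurons. Prox1 had 115, 99.3 and 99.5 CPM in the input libraries and 25.7, 22.4, 41.0 and 40.8 CPM in TRAP libraries of non-defeated mice, with means of 105 ± 9.25 (SD, n = 3) and 32.5 ± 9.79 (SD, n = 4). Its log2 fold change was -1.69 (standard error 0.29, adjusted p = 0.000183). Its exons share 133 bp with Prox1os on the opposite strand, and since the strand setting of the counts is not stated, reads in that stretch are uncertain. C1ql2 encodes a secreted C1q-like protein of mossy fiber synapses. C1ql2 had 61.7, 53.4 and 41.0 CPM in the input libraries and 15.5, 13.5, 14.9 and 17.2 CPM in TRAP libraries of non-defeated mice, with means of 52.1 ± 10.4 (SD, n = 3) and 15.3 ± 1.53 (SD, n = 4). The log2 fold change was -1.77 (standard error 0.18, adjusted p = 1.25e-06). The values in defeated mice were 18.8, 31.0, 45.1 and 26.0 CPM in resilient and 18.6, 22.8 and 36.1 CPM in susceptible mice for Prox1. For C1ql2 they were 11.7, 14.3, 14.5 and 13.2 CPM in resilient and 15.5, 10.5 and 18.8 CPM in susceptible mice, and all 11 TRAP libraries lay between 10.5 and 18.8 CPM.

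Levels were compared between genes per kilobase of exon (RPKM from TMM-normalized CPM). In input, Nrgn was highest, with 760.4 ± 84.1 RPKM (SD, n = 3), followed by Itpka with 178 ± 14.1. Neurod6, Slc17a7 and Camk2a, at 125, 116 and 114 RPKM, had overlapping ranges, and so did Fibcd1 and Prox1, at 13.5 and 12.5. In TRAP of non-defeated mice, Nrgn remained highest, with 134 ± 24.2 RPKM (SD, n = 4). Camk2a came second, with 60.4 ± 8.53, and overlapped Itpka, with 58.3 ± 8.51. Slc17a7 was at 31.4, Neurod6, which overlapped Slc17a7 in input, at 22.4 and Rgs14 at 11.7, without overlap. C1ql2, Wfs1, Fibcd1 and Prox1, the lowest 4, each overlapped the next.

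Whether the 10 genes fell by the same factor was asked with the ratio of each gene to Slc17a7 within a library, which does not depend on the scaling. The log2 ratio of Camk2a to Slc17a7 was 0.45 ± 0.13 (SD, n = 3) in input and 1.42 ± 0.06 (SD, n = 4) in TRAP of non-defeated mice, and the groups did not overlap. For Neurod6 it was -1.21 ± 0.05 in input and -1.80 ± 0.19 in TRAP, and for Itpka -0.94 ± 0.04 and -0.68 ± 0.09, also without overlap. In each of these 3 genes the exact permutation p was 0.0286 (2-sided), the smallest that 4 against 3 libraries can give, and 0.0857 after adjustment over the 9 ratios, so 0 of 9 passed. Camk2a, the other reference that was tried, had the smallest decrease of the 10 genes in these same libraries. The direction of ratios to it was therefore fixed by that choice, and they are no separate support for unequal decreases. Relative to Camk2a, the log2 ratio of 7 of 9 genes was lower in TRAP at an adjusted p of 0.0367 (exact permutation test, 4 against 3 libraries). They were Slc17a7 (-0.97), Neurod6 (-1.55), Nrgn (-1.59), Prox1 (-0.81), Rgs14 (-0.89), Itpka (-0.70) and C1ql2 (-0.83), each as the difference in mean log2 ratio between TRAP and input. Wfs1 and Fibcd1, with differences of -0.45 and -0.51, did not pass. The ratio of Camk2a to Slc17a7 is the same in both settings, with an unadjusted p of 0.0286. It passed only with Camk2a as reference, where 7 ratios reached that smallest p and the adjustment is therefore milder.

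Other marker lists were read in the same fit. Of 32 further genes of hippocampal excitatory neurons, 23 were lower in TRAP of non-defeated mice, 1 was higher and 8 were neither, with a median log2 fold change of -1.31. All 4 other CA1 markers were lower, led by Man1a (-1.86, adjusted p = 8.81e-05), as were 7 of 8 other markers of excitatory neurons in general, led by Arpp21 (-2.29, adjusted p = 4.44e-08). Of the other CA2 markers, 3 of 6 were lower, led by Amigo2 (-1.26, adjusted p = 0.000796), and of the CA3 markers, 4 of 5, led by Grik4 (-1.77, adjusted p = 1.17e-05). Pcp4 of the CA2 list (-0.84, standard error 0.89) and Coch of the CA3 list (1.33, standard error 1.14) were imprecise. The summed CA2 list was highest among TRAP libraries in resilient 7 and non-defeated 9, at 835 and 447 CPM, beside 332 to 483 in input. Of the other granule cell markers, 4 of 6 were lower, led by C1ql3 (-1.59, adjusted p = 5.46e-05), and Dsp, which encodes the desmosomal protein desmoplakin, was higher (1.51, adjusted p = 0.00287). Of the mossy cell markers, 1 of 3 was lower, Csf2rb2 (-3.76, adjusted p = 0.0118), with a wide 95% confidence interval of -6.28 to -1.25. Ajap1 and Drd2 of that list had -0.05 and -0.25.

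Markers of glia were lower in TRAP too, with medians of -2.07 for oligodendrocytes (8 of 8 lower, led by Mog), -2.47 for microglia (7 of 7, led by Tmem119) and -1.79 for astrocytes (6 of 7, led by Fgfr3). Of the other interneuron markers, 7 of 9 were lower, led by Cnr1 (-1.44, adjusted p = 1.38e-06), and 2 were higher, Npy (2.79, adjusted p = 7.1e-06) and Sst (1.61, adjusted p = 0.000753), whereas the PV interneuron list had a median of 2.77. Of 6 endothelial markers, Kdr was lower (-1.67, adjusted p = 0.0159) and Cldn5 higher (1.22, adjusted p = 0.0136). These 6 genes were low, with a summed level between 5.42 and 8.06 CPM in input. Excitatory neurons of neighbouring regions such as thalamus and cortex had 2 of 5 markers lower, led by Fezf2 (-1.44, adjusted p = 4.47e-06).

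**Figure D2:**
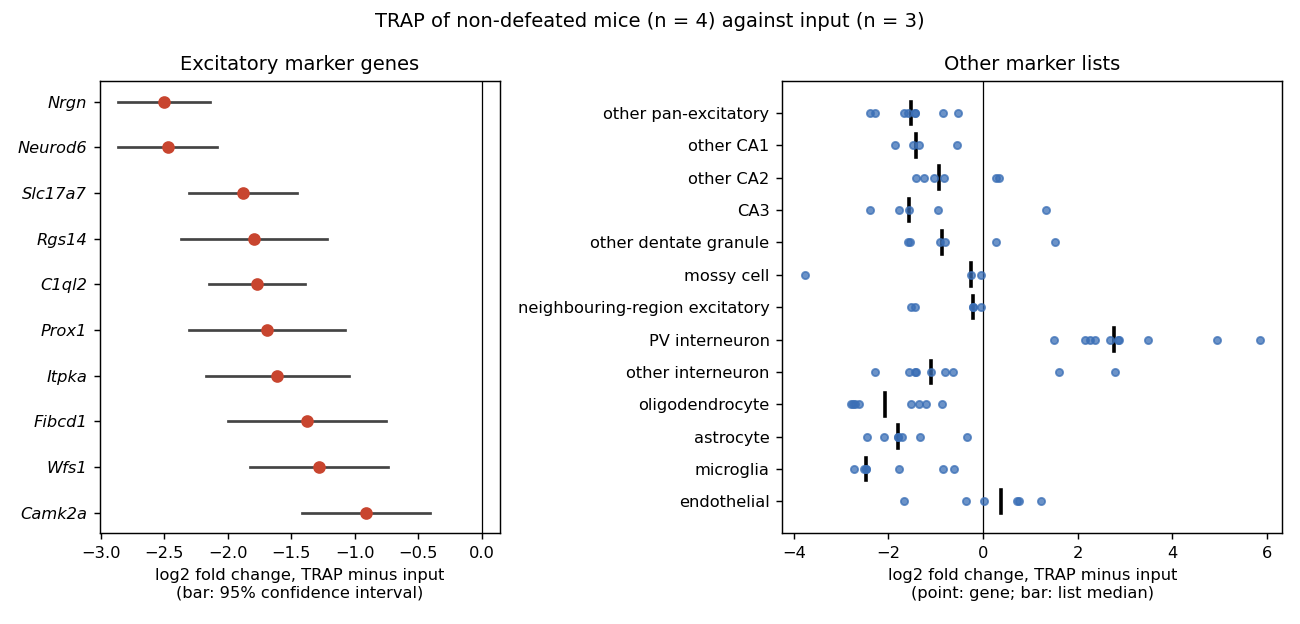
Log2 fold change between TRAP of non-defeated mice and input for the 10 excitatory marker genes (left, with 95% confidence intervals) and for 13 other marker lists (right, each gene a point, the list median a bar). All 10 intervals on the left lie below 0, from a fold change of -0.91 for Camk2a to -2.50 for Nrgn, and on the right all PV interneuron genes lie above 0.

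The level by library was given as the CPM of each TRAP library in percent of the mean of the 3 input libraries. This percent does not separate RNA carried over from RNA of tagged cells. The median over the 10 genes was 24.2%, 25.9%, 35.3% and 35.1% in non-defeated 1, 6, 9 and 11, 20.2%, 36.2%, 30.1% and 30.5% in resilient 3, 5, 7 and 8, and 27.9%, 21.8% and 36.2% in susceptible 2, 4 and 10. The means were 30.1% ± 5.89 (SD, n = 4) for non-defeated, 29.2% ± 6.63 (SD, n = 4) for resilient and 28.6% ± 7.24 (SD, n = 3) for susceptible mice. The groups overlapped, and each held both high and low libraries.

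**Figure D3:**
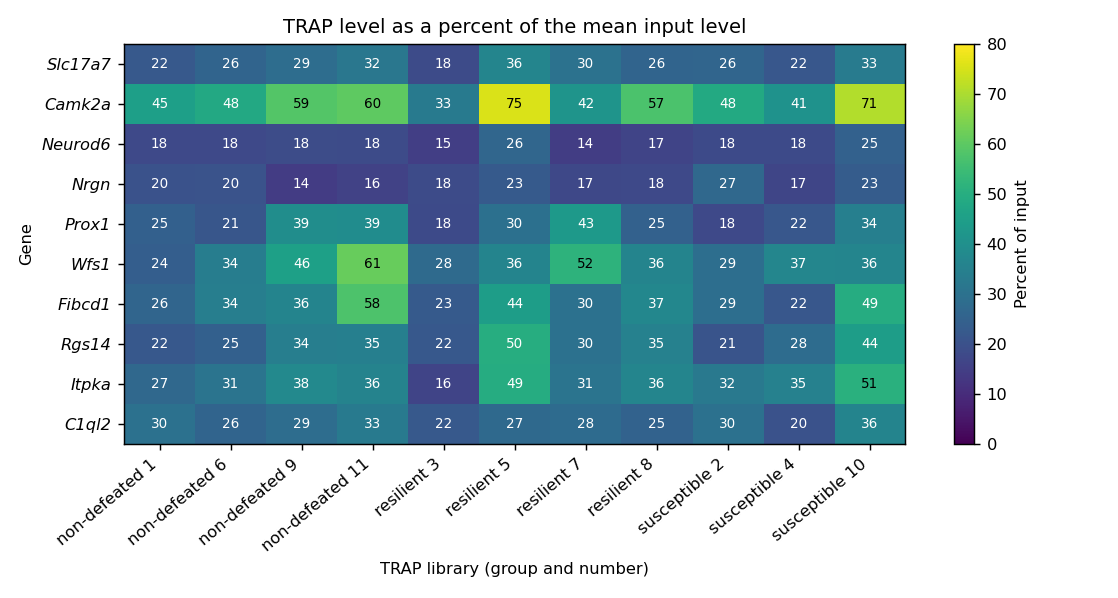
CPM of each excitatory marker gene (rows) in each TRAP library (columns, by group and library number) in percent of its mean over the 3 input libraries, by color and printed value. Resilient 5 and susceptible 10 are high in most rows, resilient 3 is low in most, and Camk2a is the gene with the highest percentages in most libraries.

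Susceptible 10 was above the median of the 11 TRAP libraries in all 10 genes, and non-defeated 9 and 11 were in 9 each. Resilient 5 was above it in 8 and was the highest library for Slc17a7, Camk2a, Neurod6 and Rgs14. Resilient 3 was above it in 0 and was the lowest for Slc17a7, Camk2a and Itpka. Over the TRAP libraries, the highest value of a gene was between 1.79 times (C1ql2) and 3.10 times (Itpka) the lowest.

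Between resilient and non-defeated mice, 0 of the 10 excitatory markers differed at an adjusted p under 0.05, where 0% of the genes tested did. At an unadjusted p under 0.05, 0 of the 10 and 4.38% of all genes passed. The median log2 fold change of the 10 was -0.02, beside 0.00 for all genes tested. Rgs14 had the largest, 0.24 (95% confidence interval -0.29 to 0.78), and Fibcd1 the lowest, -0.20 (-0.78 to 0.38), and the 95% intervals of all 10 genes lay between these outer bounds.

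Between susceptible and non-defeated mice, 0 of the 10 passed at an adjusted p under 0.05, beside 0.0376% of the genes tested, and 0 at an unadjusted p under 0.05, beside 13.3%. The median was 0.00, beside 0.01 for all genes. Nrgn had a log2 fold change of 0.33 (95% confidence interval -0.02 to 0.69, adjusted p = 0.396 in edgeR), with 195 ± 35.2 (SD, n = 4) CPM in non-defeated and 246 ± 58.1 (SD, n = 3) CPM in susceptible mice. Prox1 had -0.33 (-0.95 to 0.29, adjusted p = 0.642), with 25.8 ± 9.15 (SD, n = 3) CPM in susceptible mice. In both genes the groups overlapped.

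Between susceptible and resilient mice, 0 of the 10 passed at an adjusted p under 0.05, beside 1.89% of the genes tested, and 0 at an unadjusted p under 0.05, beside 20.9%. Of all genes, 403 passed at the adjusted threshold in this fit, 1 with TRAP libraries only and 0 with the 2 groups only. The median of the 10 was 0.02, beside 0.00 for all genes. Itpka had the highest log2 fold change, 0.25 (95% confidence interval -0.32 to 0.81), and Prox1 the lowest, -0.23 (-0.85 to 0.39). Over the 3 comparisons, which share libraries with each other, the intervals of the 10 genes reached from -0.95 to 0.83, and changes of that size were not detectable for every gene with 3 or 4 libraries a group. DESeq2 called 0 of the 10 in each comparison as well. Of all genes it called 0 of 27482, 113 of 27256 and 991 of 27329 in the 3 comparisons, in the order above.

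**Figure D4:**
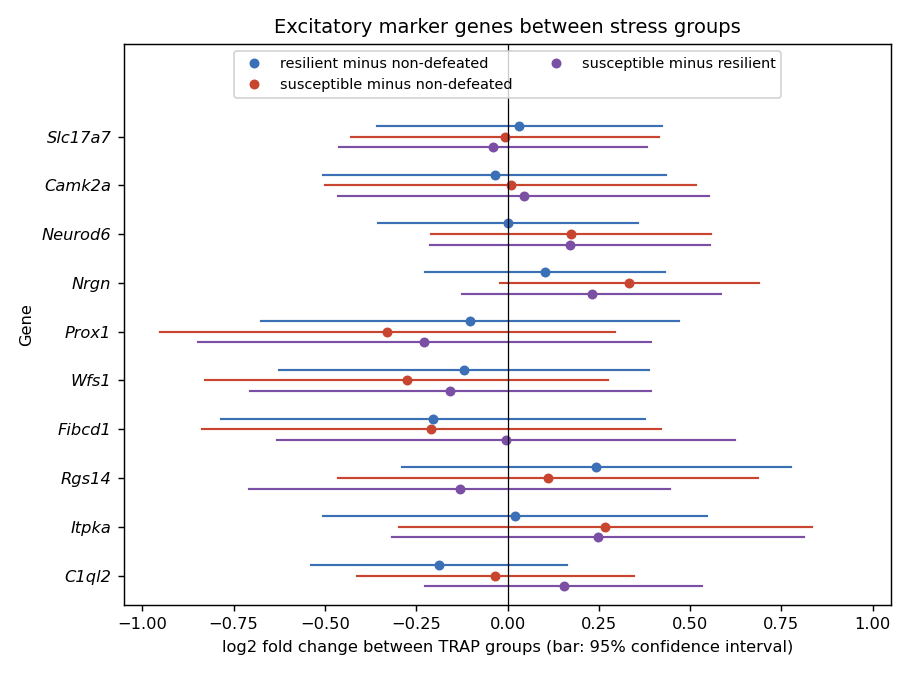
Log2 fold change of the 10 excitatory marker genes between TRAP groups, with 95% confidence intervals, for resilient against non-defeated, susceptible against non-defeated and susceptible against resilient mice. All 30 intervals include 0, and those of Nrgn and C1ql2 are narrower than those of Prox1 and Fibcd1.

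Most of the 10 genes had positive correlations with each other from library to library, and Nrgn stood apart. Of the 45 pairs of genes, 41 had a positive Pearson correlation of log2 CPM over the 11 TRAP libraries, with a median r of 0.59, and 16 pairs passed at an adjusted p under 0.05 (permutation test, 2-sided, Benjamini-Hochberg over the 45 pairs), whereas 12 did by Spearman's rho, all among the 16. The lowest r of the 16 was 0.68. Among all pairs of 12349 genes with a mean of at least 5 CPM, the median r was 0.01, 50.4% of pairs had a positive r and 7.25% had an r of at least 0.681, beside 91.1% and 35.6% of the 45 pairs, as a description. The strongest pair was Camk2a and Itpka (r = 0.89, adjusted p = 0.0045; rho = 0.86, adjusted p = 0.0193), with r = 0.79 when the 2 libraries farthest from the median of Camk2a were left out. Slc17a7 and Camk2a had r = 0.86 (adjusted p = 0.00726; rho = 0.85, adjusted p = 0.0193), and 0.68 without 2 libraries. Prox1 and Wfs1 had r = 0.80 (adjusted p = 0.0135; rho = 0.78, adjusted p = 0.0327), and 0.71 without 2 libraries. Without the 2 farthest libraries, 13 of the 16 pairs had an r above 0.6, and the lowest, 0.14, was that of Neurod6 and Rgs14, so that this pair rested on 2 libraries. With group means removed, 20 pairs passed. Without susceptible 10 the number was 9, and without resilient 3 it was 10.

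Nrgn was in none of the 16 pairs. Its correlation was r = 0.14 with Slc17a7, 0.19 with Camk2a and 0.43 with Neurod6, and it was -0.45 with Prox1 and -0.58 with Wfs1 (rho = -0.65), none with an adjusted p under 0.05. A score was formed as the mean of the centred log2 CPM of the 10 genes in each TRAP library, to which each gene contributes. Its r with the single genes was 0.96 for Slc17a7, 0.93 for Camk2a, 0.91 for Fibcd1, 0.88 for Itpka, 0.88 for Rgs14 and 0.07 for Nrgn, and between 0.59 and 0.73 for the other 4.

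Markers of other cells were read against this score over the same 11 libraries, as a description, since all lists share the library and its scaling. The r was 0.99 for the other granule cell markers, 0.95 for the other CA1 markers, 0.85 for the other markers of excitatory neurons in general, 0.96 for oligodendrocytes, 0.93 for microglia and 0.92 for astrocytes. It was lower for the other hippocampal excitatory lists, at 0.605 for the other CA2 markers, 0.44 for CA3 and -0.39 for mossy cells, and was 0.515 for excitatory neurons of neighbouring regions, 0.224 for other interneurons and 0.219 for endothelial cells. For the PV interneuron list it was -0.75, and for Pvalb alone -0.44. The oligodendrocyte list was at a median of 36.3% of input in resilient 5 and 14.96% in resilient 3, where the excitatory markers were highest and lowest among resilient mice. Its summed level was between 874 and 1273 CPM in non-defeated, between 523 and 1608 in resilient and between 908 and 1437 in susceptible mice. The part of these cell types in the variation of the 10 genes was not tested.

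**Figure D5:**
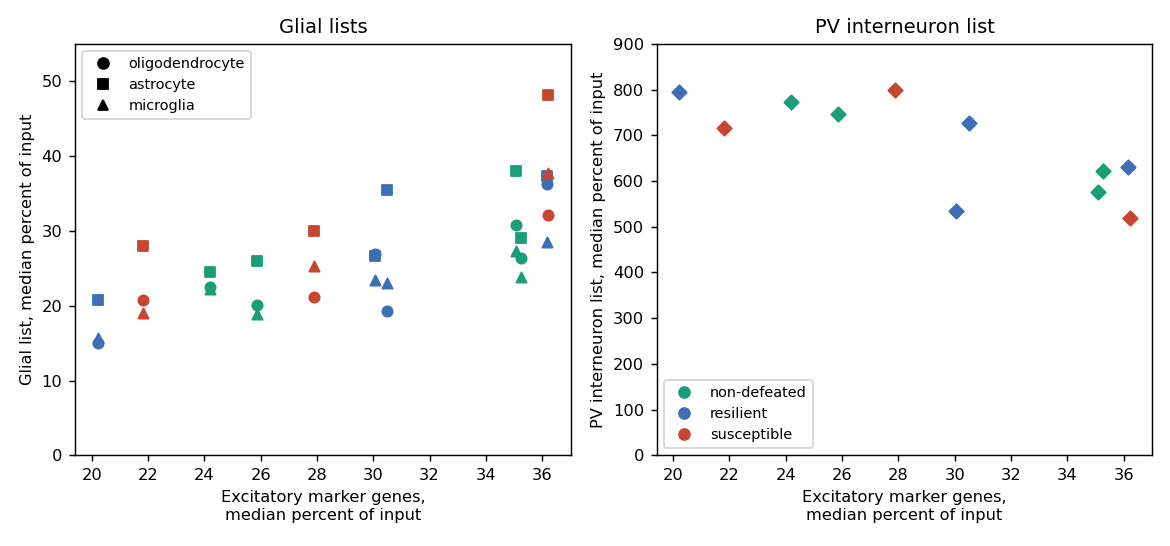
Median percent of input of the 10 excitatory marker genes (x axis) against that of glial lists (left, by marker shape) and of the PV interneuron list (right), with 1 point per TRAP library and list, colored by stress group. The glial lists were low in resilient 3, at the left end, and higher in resilient 5 and susceptible 10, at the right end, where the PV interneuron list was at 631% and 518% of input, beside 796% in resilient 3.

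The markers of excitatory neurons of neighbouring regions (Slc17a6, Tcf7l2, Prkcd, Rorb and Fezf2) were also read against the 10 genes, a comparison chosen after their values were seen. The summed level of this list was 561 CPM in resilient 7, 325 in non-defeated 9 and 207 in non-defeated 11, beside 132 in susceptible 10 and between 37.5 and 65.5 in the other 7 TRAP libraries, and it was 146, 137 and 361 in the 3 input libraries. Prkcd, which encodes protein kinase C delta, made up most of the sum, with 340, 197 and 129.8 CPM in resilient 7 and non-defeated 9 and 11. Slc17a6, Tcf7l2 and Rorb were likewise highest in these 3 TRAP libraries, whereas Fezf2 had its lowest TRAP value, 9.78 CPM, in resilient 7. Prox1 had its 3 highest TRAP values in those same libraries, with 45.1, 41.0 and 40.8 CPM, and so did Wfs1, with 30.4, 26.8 and 36.1 CPM. Over the 11 TRAP libraries, the log2 summed level had r = 0.91 with Prox1 (rho = 0.93) and 0.82 with Wfs1 (rho = 0.86), and 0.90 and 0.84 without the 2 libraries farthest from its median. For the other 8 genes r was between -0.48 (Nrgn) and 0.57 (Slc17a7) over all 11. Without those 2 libraries, resilient 7 and non-defeated 9, it was 0.84 for Fibcd1, as high as for Wfs1, 0.70 for Slc17a7, 0.68 for C1ql2 and 0.65 for Camk2a, and between -0.22 (Nrgn) and 0.61 (Rgs14) for the other 4, so the relation was not particular to Prox1 and Wfs1.

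Without resilient 7 and non-defeated 9 and 11, a setting also chosen after seeing the data, all 10 genes were still lower in TRAP than in input, with a log2 fold change of -2.13 for Prox1 and -1.80 for Wfs1. In that setting 0 of the 10 differed between stress groups. Of 21612 genes tested, 1 passed between resilient and non-defeated, 0 between susceptible and non-defeated and 66 between susceptible and resilient mice. The log2 fold change of Prox1 between susceptible and non-defeated mice was 0.11 there. The part of neighbouring regions in the levels of Prox1 and Wfs1 was not tested. The same 3 libraries are numbered 7 to 11, and Wfs1 was between 21.3 and 36.1 CPM in the 5 TRAP libraries numbered 7 to 11 and between 14 and 21.6 in the 6 numbered 1 to 6. The mean of each of the 10 genes but Neurod6 and Nrgn was higher in numbers 7 to 11 than in 1 to 6. It was 37.8 and 23.2 CPM for Prox1, and 195 and 230 CPM for Nrgn. The score was between 0.004 and 0.392 in numbers 7 to 11 and between -0.493 and 0.354 in 1 to 6. The part of the library number in the correlations between the 10 genes was not tested. Only 1 susceptible library is numbered 7 to 11, so that values within those numbers were not compared. With the number as a factor, 0 of the 10 differed between stress groups, beside 0, 0 and 282 of 20762 genes tested, in the same order of comparisons.

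The length of a gene moved with the score too. Among 12187 genes with a mean of at least 5 CPM and a known exon length, ranked by length into 5 groups of nearly equal size, the median r with the score was -0.41 in the shortest group (at most 1970 bp) and 0.37 in the longest (at least 7475 bp), with -0.24, -0.01 and 0.15 between. The contrast between the longest and shortest group in a library, a difference of median log2 CPM, was between -0.22 in susceptible 2 and 0.27 in non-defeated 9, and had r = 0.77 (rho = 0.74) with the score over the 11 TRAP libraries. Nrgn is the shortest of the 10 genes, with 1453 bp of exon, and Itpka, with 1818 bp, is the next. With the curve of each library over exon length removed, a setting chosen after seeing the data, 18 of the 45 pairs passed, 15 of them among the 16, and with an offset for exon length all 10 genes were lower in TRAP than in input. Ranked into 5 groups by fold change between TRAP and input, the genes with the lowest fold changes had a median r of 0.41 with the score and those with the highest -0.48. The part of gene length in the score was not tested beyond these settings.

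By correlation with the score, the genes outside all lists most like the 10 markers were Ptk2b (r = 0.985), Papss2 (0.983), Xrn2 (0.980), Arhgef2 (0.978) and Dhx29 (0.977), of 12275 genes with a mean of at least 5 CPM, over 11 TRAP libraries. Ptk2b, which encodes a calcium-activated tyrosine kinase of neurons, had a mean of 1063 CPM in input and 569.8 in TRAP of non-defeated mice, and was lower in TRAP (log2 fold change -0.90, adjusted p = 0.0195), as was Papss2 (-1.16, adjusted p = 0.0112). Xrn2, which encodes a nuclear exoribonuclease, had 0.15 (adjusted p = 0.642), Arhgef2 -0.17 (adjusted p = 0.56) and Dhx29 0.32 (adjusted p = 0.219).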

How the data were processed

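TRAP RNA of 4 non-defeated, 4 resilient and 3 susceptible mice and input RNA of 3 non-defeated mice were analysed. The authors deposited raw counts per gene, from full-length cDNA of 1 ng of RNA, with reads trimmed by fastp and aligned to mm10 with STAR (2.5.3a in the submitters' processing notes, which also name HTSeq). The annotation and strand setting of the counts are not given in the sources used here. GENCODE mouse release 21 named 37607 of 39017 identifiers, and the others held 0.824% of the counts.

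Tests used edgeR 4.0.16 in R 4.3.3 (TMM, default filter on low counts, quasi-likelihood test, 1 model of all 14 libraries, 2-sided tests, Benjamini-Hochberg adjustment over 21298 genes). The study's methods name DESeq2 comparisons between pairs of groups, but its own results give the same mean log CPM per gene in each comparison, as a single fit would. A single model was used here, and DESeq2 1.42.0 was an alternative. Log2 CPM used a prior count of 2. Correlations used 100000 resamples. Ratios used exact permutation tests. The edgeR steps, but not the ratio and correlation tests, were tried on simulated counts with far fewer changed genes than differed between TRAP and input. The 10 genes and all lists were chosen with earlier results of these data known. All 10 genes are named, with Pvalb, the gene with the smallest p per list and direction among those past the threshold, and the 5 genes most correlated with their mean. Each TRAP sample was 1 mouse. For input this is not stated. The edgeR p-values rest on a spread between libraries that was estimated over all 14. Those of ratios and correlations rest on permutations of libraries. Alternatives were the likelihood ratio test, RLE factors, library totals, other filters, fewer groups, library number, GC content, exon length and leaving out libraries. Columns mapped to no sample numbered 0. The closest pair of replicates, input 12 and 13, differed by more than counting error (chi-square per degree of freedom 13.9). Pairs of TRAP replicates had values between 18.4 (non-defeated 9 and 11) and 126 (susceptible 4 and 10).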

Additional observations from a re-analysis of the deposited data

Results flagged for a closer look

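In groups of 4, the levels of the 10 genes and of Pvalb were checked for a library far from the other 3 (Dixon's test, 22 groups of 4 libraries), a check that flags about 1 in 20 groups by chance, and 2 were flagged. Nrgn had 250.4 CPM in resilient 5, and between 193 and 200.7 CPM in the other 3 resilient libraries. Resilient 5 was also the highest TRAP library for Slc17a7, Camk2a, Neurod6 and Rgs14. Pvalb had 1265 CPM in non-defeated 9, and between 1507 and 1548 CPM in the other 3 non-defeated TRAP libraries. In non-defeated 9 the excitatory markers were at a median of 35.3% of input, the highest of that group. Non-defeated 11 was close, at 35.1%, and had 1538 CPM of Pvalb.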

How the results depend on the processing

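All 10 genes were lower in TRAP than in input in 17 alternative settings, including those that left out 1 library each, with log2 fold changes between -2.69 and -0.62. In the stress comparisons, 0 of the 10 passed in 20, 19 and 19 settings. The sign of these fold changes, none past the threshold, changed in 32 of 200 values between resilient and non-defeated mice, in 21 of 190 between susceptible and non-defeated mice and in 26 of 190 between susceptible and resilient mice. Without resilient 7 and non-defeated 9 and 11, a setting that, like those for exon length, was chosen after seeing the data, Fibcd1 had 0.22 between resilient and non-defeated mice, and Prox1 had 0.11 between susceptible and non-defeated and 0.024 between susceptible and resilient mice. With 1 library left out, Fibcd1 lay between -0.372 and 0.053 in the first of these and Prox1 between -0.547 and 0.031 in the last. The number of ratios that passed was 7 of 9 with Camk2a, the gene with the smallest decrease, as reference and 0 in all other settings. Among these, leaving out 1 library limits the exact p to 0.1 or 0.0667. The number of correlated pairs was between 9 and 20 with 1 library left out. Among all genes, 0 to 4 passed between resilient and non-defeated, 0 to 189 between susceptible and non-defeated and 0 to 1099 between susceptible and resilient mice, beside 0, 8 and 403. The cause of these differences was not tested. No paired analysis was made, because the library numbers, each used once, do not show which libraries came from the same mouse. With 3 or 4 libraries a group, precision is set by their number rather than by depth.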
